A study of Mus musculus with 8 samples.

Results

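The genes described here are 51 mouse genes of the germline, of meiosis and of sperm, taken by name from the RefSeq table and found on the arrays through the RefSeq accession of each probe. Of these, 50 had at least 1 probe, 62 probes in all, among 20660 genes named on the array. Piwil4 had none. They fall into 16 meiotic genes, 13 genes of the piRNA pathway and retrotransposon defence, and 22 genes of spermatids and sperm. RNA was measured on one-colour arrays in mouse morulae at embryonic day 3.0, from in vitro fertilisation and cultured in KSOM medium. All embryos were injected at the 1-cell stage, those of the siControl group with control siRNA (3 arrays) and those of the P150KD group with siRNA against P150 (5 arrays). CAF-1 is a histone chaperone that assembles nucleosomes on newly copied DNA. P150, its large subunit, is encoded by Chaf1a. Each array held amplified RNA pooled from 10 embryos, and the labels do not name the strain. The labels do not say whether the replicates came from separate collections, so the p-values measure only the spread between these samples.

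Germline genes are kept silent in most cells of the body. Many of them have promoters rich in CpG dinucleotides that are methylated around implantation, and in the early embryo and in embryonic stem cells many are held down by a variant Polycomb complex (PRC1.6), whose subunits E2F6 and MGA/MAX bind short DNA motifs. In the germline itself, the meiotic genes pair and recombine the chromosomes, the piRNA genes make small RNAs that silence retrotransposons, and the spermatid genes repack the DNA and build the acrosome and the tail.

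A level below is the log2 processed signal minus the log2 of the 75th percentile of that array, so 0 stands for that percentile, and a difference of 1 is a 2-fold difference in signal. Levels are relative to the rest of the RNA on the array, and levels of different probes cannot be set against each other. Spots well above background made up 50.1% to 55.9% of each array, and none was saturated. The 75th percentile of the signal was lowest for siControl replicate 3 (819) and highest for P150KD replicate 5 (1304). Chaf1a, the siRNA target, read 2.40, 2.09 and 2.27 on the siControl arrays and -1.47, 0.52, -0.48, -1.45 and -0.23 on the P150KD arrays (limma adjusted p = 0.0107). The log2 fold change was -2.88 (SE 0.48). Of 8 genes listed as markers of the morula, each was above background on all arrays. Tead4, Gata3 and Krt18 of these fell in P150KD (limma adjusted p = 0.0243, 0.0456 and 0.00296), which is 37.5%, beside 10.5% of all genes tested. Pou5f1, Nanog, Cdx2, Tfap2c and Sall4 did not pass. Krt18 had the largest fall and read 6.62 to 7.02 in siControl and 2.96 to 4.30 in P150KD. The summed signal of the 8, in units of the 75th percentile, was 373 to 403 on the siControl arrays and 198 to 221 on the P150KD arrays. Their log2 fold changes were uneven, from -3.09 for Krt18 to 0.12 for Sall4 by its brightest probe, with 7 lower and 1 higher. The part of these marker changes in the changes of the members was not tested. In bulk samples, fewer cells of a type and less RNA per cell cannot be told apart.

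Genes entered the test if 3 or more of the 8 arrays showed their probe well above background, with the brightest such probe standing for the gene. Of the members, 40 were tested, of which 26 were above background on all 8 arrays. At a limma adjusted p under 0.05, 7 members rose in P150KD, and they were Sycp1, Tex12 and Tex15 of the meiotic genes and Tex101, Tuba3a, Brdt and Slc25a31 of the spermatid genes. The meiotic gene Syce2 fell, and 32 members did not pass. No piRNA gene passed. Among all 14601 genes tested, 6.65% rose and 10.5% fell, beside 17.5% and 2.5% of the tested members. The members were chosen with earlier results of these data known, so these shares describe the list and are no test of it. The median log2 fold change was 0.62 over the tested members and -0.24 over all genes. With only probes above background on all 8 arrays, it was 0.14 over 26 members and -0.28 over all genes. Of all genes called, 38.9% had risen. Quantile normalization moved the median of all genes to -0.12 and that share to 54.3%, with the median of the members at 0.65.

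**Figure D1:**
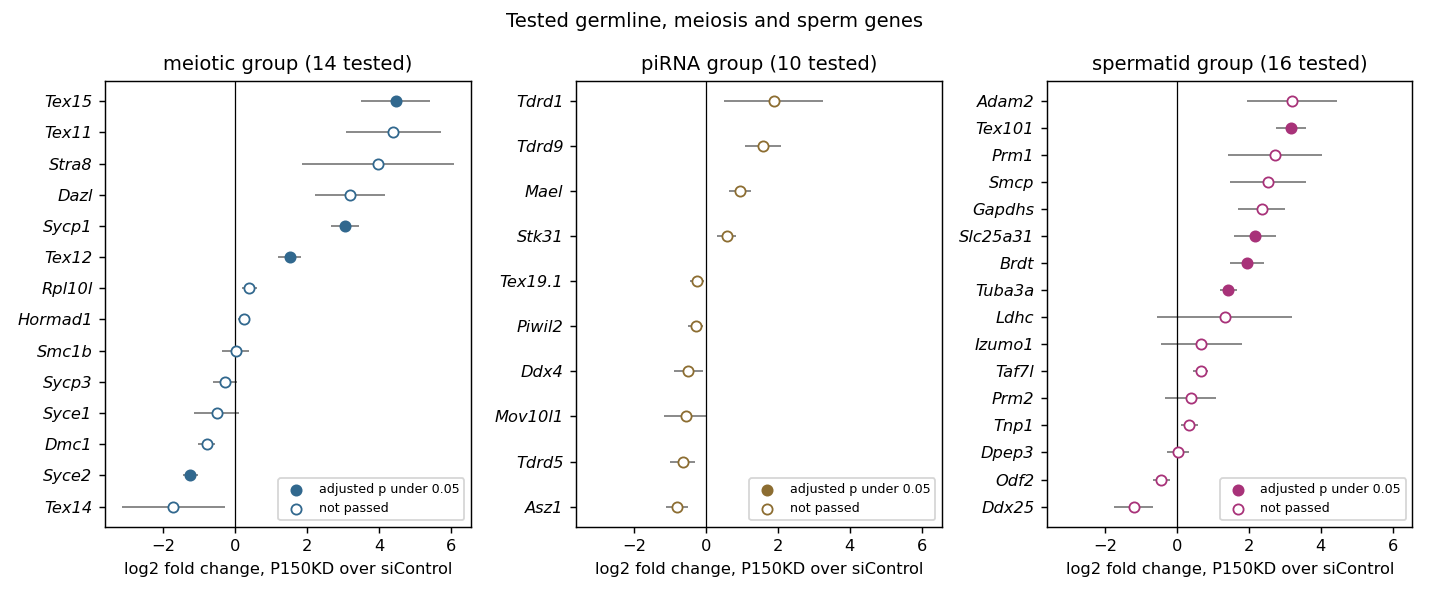
Log2 fold change of P150KD over siControl (x axis) for the 40 tested members in 3 groups, with the standard error from limma as a horizontal line; filled points passed an adjusted p of 0.05 and open points did not. The 3 filled points above 0 and the 1 below 0 in the meiotic panel are Tex15, Sycp1, Tex12 and Syce2, the 4 filled points of the spermatid panel lie between 1.43 and 3.17, and the piRNA panel has none.

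The promoters of 44 members were in the RefSeq table (build GRCm38.p6), each as 300 bases, 250 before the gene's start and 50 after it. They were searched on both strands for TCCCGC, the motif of E2F6, for CACGTG, the E-box bound by MGA/MAX, and for TGACGTCA, the cyclic AMP response element (CRE) bound by the spermatid regulator CREM. No motif contains another. The sequences of 3 members that rose and hold both the E2F6 motif and the E-box are shown, with Tex101, which rose and holds none of these motifs. Capitals mark the matches of the motifs or of their reverse complement, and each sequence runs 5′ to 3′ on the strand of the gene. All 4 are from GRCm38.p6: Sycp1 at chr3:102936051-102936350 (minus strand), Tex12 at chr9:50561219-50561518 (minus strand), Slc25a31 at chr3:40708621-40708920 (plus strand) and Tex101 at chr7:24672001-24672300 (minus strand).
Sycp1: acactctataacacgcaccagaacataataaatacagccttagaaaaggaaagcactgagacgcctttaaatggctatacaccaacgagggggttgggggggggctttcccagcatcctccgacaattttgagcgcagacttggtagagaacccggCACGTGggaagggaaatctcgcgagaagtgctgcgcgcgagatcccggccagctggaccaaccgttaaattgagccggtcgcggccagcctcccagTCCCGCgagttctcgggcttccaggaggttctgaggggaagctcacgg
Tex12: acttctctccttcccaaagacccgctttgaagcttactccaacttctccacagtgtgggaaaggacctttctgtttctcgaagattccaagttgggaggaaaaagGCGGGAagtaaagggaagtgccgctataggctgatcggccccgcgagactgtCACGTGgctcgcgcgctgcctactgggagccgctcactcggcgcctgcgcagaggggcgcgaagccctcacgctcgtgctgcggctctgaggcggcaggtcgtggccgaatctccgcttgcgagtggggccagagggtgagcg
Slc25a31: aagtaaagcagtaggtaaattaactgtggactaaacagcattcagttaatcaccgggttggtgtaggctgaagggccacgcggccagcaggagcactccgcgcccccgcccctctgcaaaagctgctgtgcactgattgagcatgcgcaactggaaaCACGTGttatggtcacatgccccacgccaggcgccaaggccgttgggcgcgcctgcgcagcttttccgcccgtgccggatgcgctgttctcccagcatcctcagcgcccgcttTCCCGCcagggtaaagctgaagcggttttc
Tex101: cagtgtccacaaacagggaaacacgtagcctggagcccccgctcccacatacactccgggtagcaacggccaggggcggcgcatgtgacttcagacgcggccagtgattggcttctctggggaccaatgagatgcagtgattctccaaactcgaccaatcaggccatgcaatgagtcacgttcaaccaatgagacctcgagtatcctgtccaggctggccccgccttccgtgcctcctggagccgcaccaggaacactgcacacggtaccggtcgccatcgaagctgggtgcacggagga

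In Sycp1 the E-box began 94 bases before the start, in Tex12 93 and in Slc25a31 93, and the E2F6 motif lay 145 bases before the start of Tex12 and within the first bases after the start of the other two. The E2F6 motif was in 17 of the 44 member promoters (38.6%), against 20.1% of all 27025 promoters in the table and 32.6% of those of tested genes. The E-box was in 16 of 44 (36.4%), against 7.24% of all promoters and 9.76% of those of tested genes. The CRE was in 1 (Izumo1), against 1.85% of all promoters. Of the 6 risen members with a promoter sequence, 4 held the E2F6 motif (Sycp1, Tex12, Slc25a31 and Tuba3a) and 4 the E-box (Sycp1, Tex12, Slc25a31 and Brdt). Of the 29 tested members that did not pass, 12 held the E2F6 motif and 10 the E-box. Both motifs together were in 3 of the 6 risen members and in 5 of the 29 that did not pass (Ddx4, Hormad1, Mael, Sycp3 and Ddx25), against 3.58% of the promoters of tested genes. Among all genes that rose, 23.0% held the E2F6 motif and 8.84% the E-box, with a median of 11 CpG dinucleotides. Syce2, the member that fell, held the E2F6 motif as well. The E-box was in 7 of 11 promoters of the piRNA group, in which no gene passed, and the E2F6 motif in 9 of 13 of the meiotic group. The median number of CpG dinucleotides in the 300 bases was 21.5 for the risen members (12 to 26), 17.0 for those that did not pass (0 to 48) and 19.0 for all tested genes. A match is a description of letters, and binding was not measured.

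Among the meiotic genes, 3 of the 14 tested rose and 1 fell (21.4% and 7.14%), beside 6.65% and 10.5% of all genes tested. The median log2 fold change of the 14 was 0.32. Sycp1 encodes the transverse filament of the synaptonemal complex, the protein zipper that joins paired chromosomes. In the order of replicates 1 to 3 it read -0.59, 0.20 and -1.11 in siControl, and in that of replicates 1 to 5 it read 2.83, 2.997, 2.03, 1.98 and 2.95 in P150KD. Every knockdown array lay above every control array, with a log2 fold change of 3.06 (SE 0.39, limma adjusted p = 0.00487). Tex12, a part of the central element of the same complex, read -0.50, 0.22 and 0.69 in siControl and 2.16, 1.69, 1.71, 1.26 and 1.41 in P150KD. The groups again did not overlap (log2 fold change 1.51, SE 0.32, limma adjusted p = 0.0228); without siControl replicate 1 or 2 Tex12 did not pass (adjusted p = 0.0741 and 0.0654), nor with scaling to the median (0.0526).

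Tex15, which is needed for the repair of meiotic DNA breaks and for piRNA-directed silencing, was low and scattered in the controls. It read -4.16, -2.44 and -6.96 in siControl and -0.18, 0.58, -0.02, -1.24 and 0.57 in P150KD, and siControl replicate 3 was not well above background. Its log2 fold change was 4.46 (SE 0.95, limma adjusted p = 0.0234), and it did not pass without siControl replicate 1 (adjusted p = 0.0702) or P150KD replicate 5 (adjusted p = 0.0507). A further Tex15 probe was above background on no array. Syce2 encodes another central element protein of the synaptonemal complex, the partner of Tex12. It read 5.44, 5.47 and 5.28 in siControl and 4.22, 4.33, 4.08, 3.66 and 4.38 in P150KD. All 5 knockdown arrays were below the controls, and Syce2 fell by 1.26 on the log2 scale (SE 0.21, limma adjusted p = 0.0108). Of the 5 tested members of the synaptonemal complex, Sycp1 and Tex12 thus rose and Syce2 fell. Sycp3, of the lateral element, and Syce1, of the central element, did not pass, with differences of -0.30 (SE 0.34) and -0.52 (SE 0.63).

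The other tested meiotic genes spread widely. Tex11, an X-linked gene for crossover formation, read -0.36, -4.10 and -7.04 in siControl and 0.62, 0.11, -0.34, 1.16 and 1.29 in P150KD. Its lowest knockdown array lay just above its highest control, and with a control spread of 3.34 (SD, n = 3) it did not pass (log2 fold change 4.40, SE 1.32, limma adjusted p = 0.0658). A dimmer Tex11 probe, above background on no control array, differed by at least 2.08-fold (adjusted p = 0.118). Dazl, an RNA-binding protein of germ cells, differed by 3.19 (SE 0.98, adjusted p = 0.0715), with the controls at -1.87, -2.20 and -6.38. Without siControl replicate 3, the low one, its difference was 1.74 and passed (limma adjusted p = 0.0339). Tex11 passed without siControl replicate 1, with a difference of 6.14 (limma adjusted p = 0.0164). For Tex11 and Dazl siControl replicate 3 was not well above background. Differences that include that array, the 6.14 among them, are therefore not measured sizes.

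Stra8, the retinoic acid target that starts meiosis, was above background on no control array and on P150KD replicates 1, 3 and 4, where it read -1.11, -0.35 and 0.40. The other 2 knockdown arrays read -7.45 and -7.55, as low as the controls at -6.56, -7.61 and -7.37. The mean of the 5 arrays (-3.21) was at least 3.83-fold above the controls (-7.18), without passing (limma adjusted p = 0.248). The Stra8 probe entered the test through the P150KD arrays alone, and its p-value rests on siControl readings not above background. Dmc1, the meiotic strand exchange recombinase, differed by -0.79 by its brightest probe (SE 0.24, adjusted p = 0.07), with all knockdown arrays below the controls, and passed without P150KD replicate 3 (-0.92, limma adjusted p = 0.0496). Its other 2 probes did not pass (adjusted p = 0.381 and 0.640). Hormad1, an axis protein, did not pass by its brighter probe (0.24, SE 0.17, adjusted p = 0.357) and rose by its dimmer one (0.94, SE 0.23, limma adjusted p = 0.0338). Rpl10l, a retrogene for a ribosomal protein used in meiosis, differed by 0.39 and 0.74 by its probes (adjusted p = 0.229 and 0.086). Smc1b, the meiotic cohesin, differed by 0.01 (SE 0.38), and Tex14, of the bridges between germ cells, by -1.72 (SE 1.44), the latter resting on P150KD replicate 4 at -5.60.

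**Figure D2:**
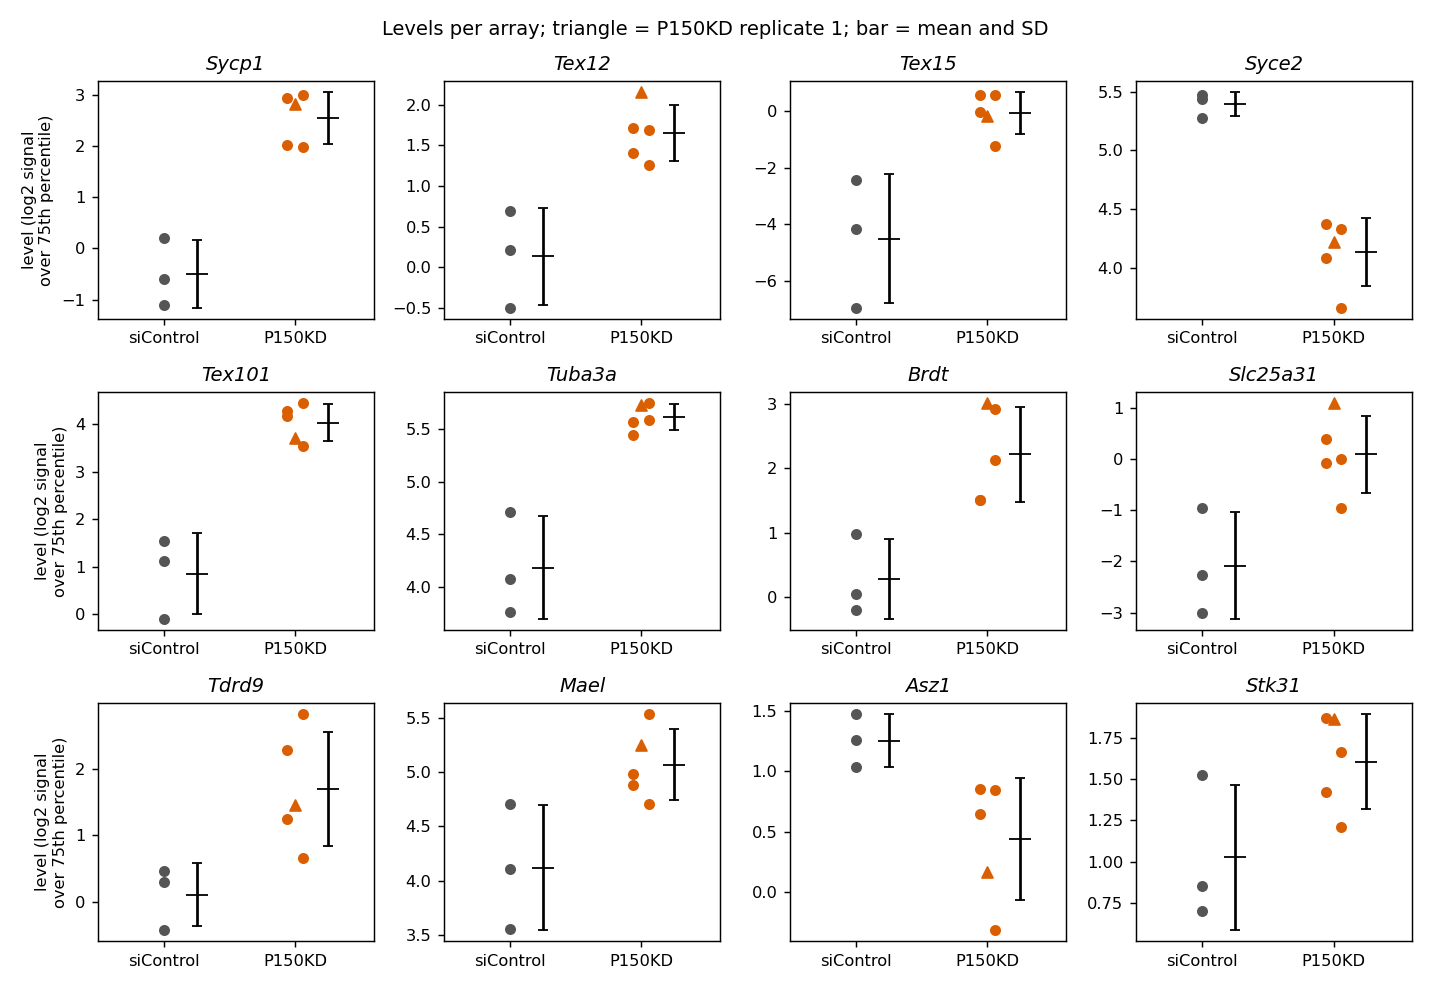
Level (y axis, log2 signal over the array's 75th percentile) of 12 members on each of the 3 siControl arrays (grey) and 5 P150KD arrays (orange), the triangle being P150KD replicate 1 and the bars the mean and SD of a group; each panel has its own scale. The top row holds the 4 meiotic genes and the middle row the 4 spermatid genes that passed, and the bottom row the 4 piRNA genes with the smallest p, which did not pass: Stk31 overlaps, and the lowest P150KD array of Mael (4.704) is just above its highest control (4.703).

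None of the 10 tested piRNA genes passed in limma, 4 had higher and 6 lower signals in P150KD, and their median log2 fold change was -0.27, near that of all genes. At an unadjusted p under 0.05, 2 were higher and 1 lower, against 12.7% and 22.9% of all genes. Tdrd9, a helicase of the piRNA pathway, had the smallest p. It read 0.29, -0.43 and 0.46 in siControl and 1.45, 0.66, 1.25, 2.82 and 2.28 in P150KD. The groups did not overlap, and the difference of 1.59 (SE 0.51) missed the threshold (limma adjusted p = 0.0794), passing without P150KD replicate 2 (1.85, limma adjusted p = 0.0465). Mael, a protein of the nuage, where piRNAs are made, read 4.11, 3.55 and 4.70 in siControl and 5.25, 5.53, 4.98, 4.70 and 4.88 in P150KD (difference 0.95, SE 0.31, limma adjusted p = 0.0834). With quantile normalization Mael passed (limma adjusted p = 0.0433).

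Asz1, which anchors the pathway at mitochondria, pointed down. It read 1.26, 1.47 and 1.03 in siControl and 0.17, 0.84, 0.86, -0.32 and 0.65 in P150KD (difference -0.82, SE 0.31, limma adjusted p = 0.127). Stk31, a Tudor protein with a kinase-like domain, read 0.85, 1.53 and 0.70 in siControl and 1.86, 1.21, 1.87, 1.67 and 1.42 in P150KD, and its groups overlapped (difference 0.58, SE 0.26, limma adjusted p = 0.186). The genes of this group that morulae carried on all 8 arrays included the Piwi gene Piwil2 (difference -0.29, SE 0.21), the germ cell helicase gene Ddx4, also called Vasa (-0.49, SE 0.40), Tex19.1, which restrains retrotransposons in germ cells and placenta (-0.25, SE 0.20), Mov10l1, the helicase that feeds piRNA precursors (-0.57, SE 0.60), and Tdrd5 (-0.65, SE 0.35). Tdrd1 was above background on 1 control and 4 knockdown arrays and differed by 1.88 with an SE of 1.38. Piwil1 and Tdrd6 were above background on no array.

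Among the spermatid and sperm genes, 4 of the 16 tested rose (25%, beside 6.65% of all genes), 0 fell in limma (beside 10.5%) and 12 did not pass. Of the 16, 14 had higher and 2 lower signals, and at an unadjusted p under 0.05 8 were higher and 0 lower. Among all genes tested, 38.7% had higher signals, and 12.7% were higher and 22.9% lower at that p. The counts of higher genes among the 16 include Smcp, whose probe entered the test through the P150KD arrays alone. The median log2 fold change of the 16 spermatid and sperm genes was 1.38, beside 0.04 over 20 other tested genes of that kind. Many were dim: 8 of the 16 were above background on all 8 arrays, and the median of the siControl means was -3.43. Tex101, a surface protein of germ cells needed for sperm migration, read 1.54, 1.12 and -0.10 in siControl and 3.71, 4.45, 4.29, 3.53 and 4.17 in P150KD. Every knockdown array lay above every control array, with a log2 fold change of 3.17 (SE 0.41, limma adjusted p = 0.00483). Tuba3a, an alpha-tubulin of the testis, read 4.08, 4.71 and 3.76 in siControl and 5.73, 5.74, 5.45, 5.58 and 5.56 in P150KD (log2 fold change 1.43, SE 0.24, limma adjusted p = 0.0108). Its dimmer probe gave 1.43 too (adjusted p = 0.00993). Tuba3a has close relatives, Tuba3b among them, whose RNA its probes could share.

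Brdt, the testis bromodomain protein that reads acetylated histones in spermatids, read 0.05, -0.20 and 0.97 in siControl and 3.01, 2.12, 1.50, 2.92 and 1.51 in P150KD. The groups did not overlap (log2 fold change 1.94, SE 0.47, limma adjusted p = 0.036), and its dimmer probe differed by 2.54 without passing (adjusted p = 0.0908). Brdt lost its call when siControl replicate 1 or 2 or P150KD replicate 1, 2 or 4 was left out (adjusted p = 0.117, 0.115, 0.0649, 0.0597 and 0.0702). It also lost it with scaling to the median (0.0566) and with no filter on dim probes (0.0613), and kept it in 9 of 18 alternatives. Slc25a31, the ADP/ATP carrier of sperm mitochondria, read -2.27, -0.96 and -3.01 in siControl and 1.09, 0.00, -0.08, -0.96 and 0.39 in P150KD. P150KD replicate 4 met siControl replicate 2, so the groups touched, and the log2 fold change of 2.17 (SE 0.57) passed narrowly (limma adjusted p = 0.0458). Slc25a31 kept its call when siControl replicate 2 or P150KD replicate 4 was left out and lost it without siControl replicate 1 or 3 (adjusted p = 0.135 and 0.141) or P150KD replicate 1, 2, 3 or 5 (0.0788, 0.0733, 0.0784 and 0.0880). Quantile normalization (0.0539), scaling to the median (0.0526) and no filter on dim probes (0.0786) ended it too, and it held in 7 of 18 alternatives.

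Of the other early or broadly testicular genes, Taf7l, an X-linked transcription factor subunit, had all knockdown arrays above the controls (difference 0.66, SE 0.21, limma adjusted p = 0.0752). Dpep3, a membrane dipeptidase, differed by 0.03 (SE 0.30). Ddx25, a helicase of spermatids, read -3.60, -4.04 and -4.38 in siControl and -6.88, -4.88, -4.92, -4.71 and -4.67 in P150KD, each below the controls (difference -1.20, SE 0.54, adjusted p = 0.180). It was well above background on all 3 controls and on 2 of the knockdown arrays.

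None of the 9 tested genes of late spermatids and sperm passed in limma, with 3 (Gapdhs, Adam2 and Smcp) at an unadjusted p under 0.05. Gapdhs, the sperm glycolytic enzyme, came nearest. It read -4.34, -6.02 and -4.00 in siControl and -2.75, -3.39, -2.82, -2.28 and -0.94 in P150KD (difference 2.35, SE 0.65, limma adjusted p = 0.0528). Adam2, a surface protein of the fertilin complex, read -2.03, -0.89 and -7.07 in siControl and -0.16, 0.30, -0.58, -0.21 and 0.04 in P150KD, without overlap (difference 3.21, SE 1.26, limma adjusted p = 0.134). The lowest control reading of Gapdhs and that of Adam2 were not well above background, so neither difference is a measured size. The protamine gene Prm1, for the protein that replaces histones in the sperm head, read -3.73, -4.66 and -5.64 in siControl. On the knockdown arrays it read -5.37, 0.77, -0.75, -2.99 and -1.43, so replicate 1 lay among the controls and the other 4 above them (difference 2.72, SE 1.30, limma adjusted p = 0.206). Prm2 differed by 0.38 (SE 0.70) and the transition protein gene Tnp1 by 0.34 (SE 0.24). Ldhc, the sperm lactate dehydrogenase, read -1.07, -2.17 and -7.37 in siControl and -6.43, -2.04, -0.12, -0.12 and -2.37 in P150KD, with wide overlap (difference 1.32, SE 1.87). Izumo1, the sperm protein that binds the egg, differed by 0.67 (SE 1.13), and Odf2, of the outer dense fibres and also of centrosomes, by -0.44 (SE 0.23), with both of its probes above background on all 8 arrays. Smcp, of the mitochondrial sheath, was above background on no control array and on 3 knockdown arrays, a mean difference of at least 2.14-fold without passing (limma adjusted p = 0.156). The Smcp probe entered the test through the P150KD arrays alone, and its p-values, unadjusted or adjusted, rest on siControl readings not above background.

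A further 10 members with a probe were above background on fewer than 3 arrays and were not tested. Tdrd6, Piwil1 and the sperm genes Akap3, Akap4 and Crisp2 were above background on none. The synaptonemal complex gene Sycp2 was seen on P150KD replicates 1 and 5 (-1.99 and -1.16), Spo11, which makes the meiotic DNA breaks, on replicate 4 (-4.49), the tail fibre gene Odf1 on replicate 4 (-0.61), and the acrosomal gene Zpbp on replicates 2 and 5 (-3.55 and -4.14). Tnp2 was seen on siControl replicate 2 (-4.07) and P150KD replicate 1 (-3.61). Over all 50 genes with a probe, the siControl arrays showed 36, 37 and 30 above background and the P150KD arrays 37, 37, 38, 41 and 41. Of all named genes on the array, the share was 64.6% for siControl replicate 3 and 71.5% for P150KD replicate 5, the lowest and the highest. The lowest count of members fell on the array with the lowest share of all genes, and the highest count on the 2 arrays with the highest shares.

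**Figure D3:**
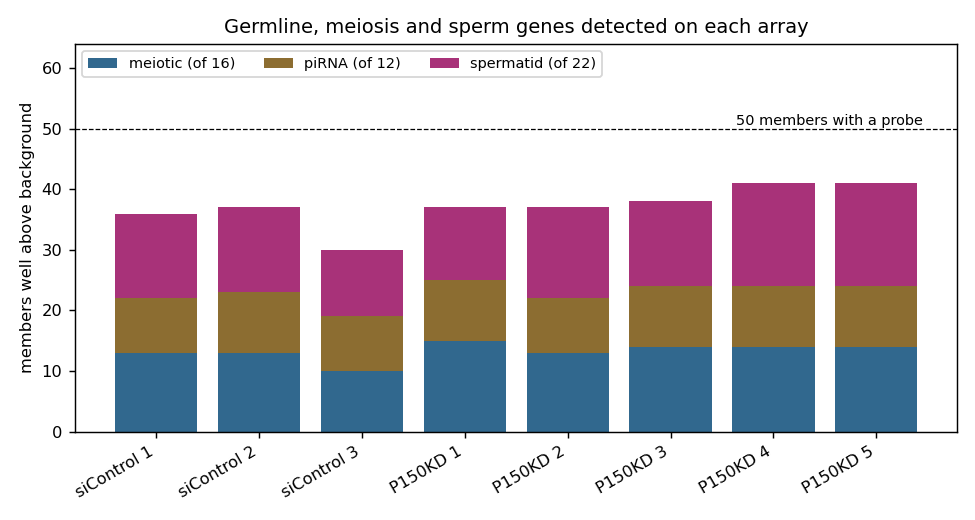
Number of the 50 members with a probe that were well above background (y axis) on each of the 8 arrays (x axis), stacked by group; the dashed line marks 50. The bars reach 30 to 37 on the siControl arrays and 37 to 41 on the P150KD arrays, the shortest being siControl replicate 3.

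Across the tested members, knockdown and control arrays did not overlap for 13 with P150KD higher and for 4 with P150KD lower, beside 10.2% and 21.8% of all tested genes. All arrays lay on 1 slide, and its column 1 held the 3 controls with P150KD replicate 1, while column 2 held P150KD replicates 2 to 5. With the column as a block, the difference is that of P150KD replicate 1 from the 3 controls. It was 3.33 for Sycp1, 2.02 for Tex12, 4.34 for Tex15, -1.17 for Syce2, 2.85 for Tex101, 1.54 for Tuba3a, 2.73 for Brdt and 3.17 for Slc25a31. The sign matched that over all arrays for each of the 8. It had to for all but Slc25a31, since the groups of the others did not overlap, so the match is no separate check. None of these 8 passed with that 1 knockdown array (limma adjusted p from 0.0594 to 0.23), while 1.42% of all genes rose and 1.39% fell. Of the 40 members, 7 were higher and 4 lower at an unadjusted p under 0.05 in this fit, and Ddx25 alone had an adjusted p under 0.05 (limma adjusted p = 0.0245). That value rests on the spot of P150KD replicate 1, which was not well above background, so its size of -2.87 is not a measured difference.

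Of the 9 tested genes of late spermatids and sperm, P150KD replicate 1 lay on the same side of the control mean as the difference over all arrays for Gapdhs (2.03), Adam2 (3.17), Izumo1 (1.07), Smcp (0.59) and Odf2 (-0.90). It lay below the control mean for Prm1 (-0.70), Ldhc (-2.89), Prm2 (-0.22) and Tnp1 (-0.06), where the mean of replicates 2 to 5 lay above it (3.58, 2.38, 0.53 and 0.44). On replicate 1, Prm1, Ldhc, Tnp1 and Smcp were not well above background. Over the 16 spermatid genes the median difference from the control mean was 0.56 on P150KD replicate 1 and 1.45, 1.49, 1.55 and 1.20 on replicates 2 to 5. Over the 14 meiotic genes it was 0.41 on replicate 1 and 0.04 to 0.51 on the others. The part of the slide column in these values cannot be told apart from that of the arrays themselves.

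**Figure D4:**
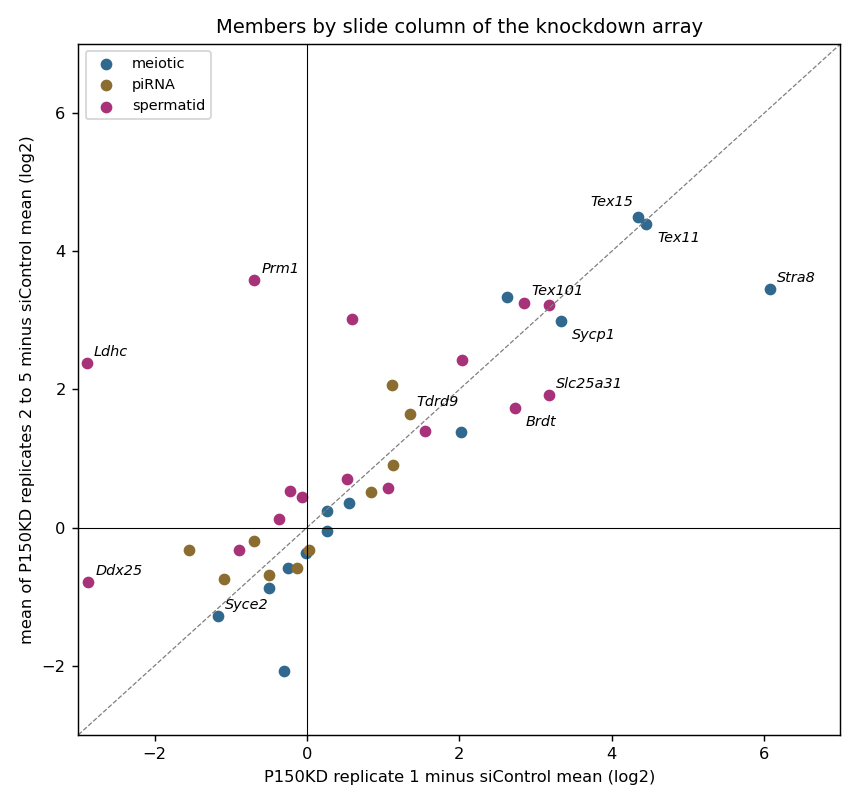
Difference from the siControl mean (log2) of P150KD replicate 1, which shares a slide column with the controls (x axis), and of the mean of P150KD replicates 2 to 5 (y axis), 1 point for each of the 40 tested members, coloured by group; the dashed line marks equality. Tex15, Tex101 and Sycp1 lie near the line above 2.8 on both axes and Syce2 near it below 0, while Prm1 and Ldhc lie at -0.70 and -2.89 on the x axis and at 3.58 and 2.38 on the y axis.

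Genes of the same processes outside the set were described for comparison, from a list of 91 other genes, of which 85 had a probe and 62 were tested. Of these 62, 6 rose and 3 fell (9.68% and 4.84%), beside 6.65% and 10.5% of all genes tested. The counts include Sox30 and Terb1, each above background in its higher group alone. The median log2 fold change of the 62 was 0.24. Among 25 meiotic genes of that list, Meioc, which prolongs meiotic prophase, rose by 4.02 (SE 1.04, limma adjusted p = 0.0431). Its siControl replicate 1 (-7.35) was not above background, the difference was 2.73 without that array and 5.29 without siControl replicate 2, and a further Meioc probe was above background on no array. Brme1, a partner of the meiotic BRCA2 localiser, rose by 1.71 (SE 0.45, limma adjusted p = 0.0443). Mlh3, of crossover resolution, rose by 1.62 (SE 0.44, limma adjusted p = 0.04996), a gene named after its value was seen. Rec8, the meiotic cohesin kleisin, fell by 1.30 on the log2 scale (SE 0.34, limma adjusted p = 0.0456). Terb1, which ties telomeres to the nuclear envelope, was at least 3.39-fold lower by its brightest probe, which was above background on all 3 controls and on no knockdown array (means -3.37 and -6.70, SE 0.54, limma adjusted p = 0.0103). That probe entered the test through the siControl arrays alone, and its p-value rests on P150KD readings not above background. Its other probe, above background on 2 controls and 1 knockdown array, did not pass (-1.75, SE 1.23, adjusted p = 0.372).

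Among 17 other genes of the piRNA pathway and of germ cell regulation, Nanos2, the RNA-binding regulator of male germ cells, rose without overlap of the groups. It read -0.95, -0.95 and -1.44 in siControl and 0.80, 0.92, 1.08, 0.79 and 0.39 in P150KD (log2 fold change 1.91, SE 0.22, limma adjusted p = 0.00374). Tex19.2, the paralogue of Tex19.1, rose by 0.79 (SE 0.18, limma adjusted p = 0.0312), and Gtsf1, a cofactor of Piwi proteins, fell by 1.11 on the log2 scale (SE 0.20, limma adjusted p = 0.0131). The 20 other spermatid and sperm genes had 10 higher and 10 lower signals and a median log2 fold change of 0.04, against 1.38 for the members of that kind. The 1 that rose (5% of them, against 6.65% of all genes) was Sox30. Sox30, a regulator of spermatid genes, rose at least 3.98-fold, from above background on no control array to all 5 knockdown arrays (means -6.88 and -3.15, limma adjusted p = 0.0227). Its probe entered the test through the P150KD arrays alone, and its p-value rests on siControl readings not above background. Of these 9 genes, Nanos2 and Terb1 kept their calls whichever array was left out, Terb1 with the limit given above. Gtsf1 lost its call once, Sox30 3 times, and Rec8, Mlh3, Meioc, Brme1 and Tex19.2 6 to 8 times of 8, with adjusted p of up to 0.135.

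Markers of other cell types were followed beside these genes. Of 10 cumulus and granulosa cell genes, Fshr, Has2, Ptx3, Tnfaip6 and Cyp11a1 were above background on no array, and 0 of the 4 tested passed in limma, with 1 (Amhr2) at an unadjusted p under 0.05. Their summed signal, in units of the 75th percentile, was 6.76 to 7.77 in siControl and 8.07 to 15.8 in P150KD. Amhr2 made up most of it, at levels of 2.10 to 2.65 in siControl and 2.69 to 3.72 in P150KD. Of 7 genes of Sertoli and Leydig cells 0 of 5 tested passed in limma, with 1 (Rhox5, lower) at an unadjusted p under 0.05. The sum was 41.9 to 48.9 in siControl and 22.0 to 37.2 in P150KD. Rhox5 made up most of that sum, at levels of 5.25 to 5.53 in siControl and 4.14 to 5.01 in P150KD. Of 8 leukocyte genes 6 were tested, and Coro1a, Srgn and Cd74 rose (50%, beside 6.65% of all genes). With 1 array left out, Cd74 kept its call in 8 of 8 fits, Coro1a in 6 and Srgn in 1. Ptprc and Lyz2 were above background on no array, and the sum was 5.09 to 16.7 in siControl and 9.97 to 14.6 in P150KD. The 16.7 was that of siControl replicate 3, mostly from Itgam at a level of 3.94. The 7 sperm genes Prm1, Prm2, Tnp1, Tnp2, Odf1, Smcp and Akap4, all members, summed to 0.198 to 0.252 in siControl, to 0.241 on P150KD replicate 1 and to 0.584 to 1.92 on the others. The part of other cell types in the changes of the members was not tested.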

How the data were processed

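Total RNA of pooled morulae was amplified linearly in 2 rounds, labelled with Cy3 and hybridised to one-colour Agilent arrays, per the labels' protocols. Per the file headers and the submitters' processing notes, the authors scanned and extracted the arrays with Agilent Feature Extraction 10.5.1. The deposited intensity columns hold the processed signal, which is background-subtracted, and the raw spot and background signal. The authors' flags (other values, 0 or 1) mark spots well above background. The deposited series table holds log2 values, and setting it against the scanner signal gave the 75th percentile scaling with each probe centred on its median.

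From the processed signal, spots of a probe were averaged, scaled to the 75th percentile of the array and put on the log2 scale. The test covered the 30348 probes that 3 or more of the 8 arrays showed well above background. P150KD was compared with siControl by lmFit and eBayes of limma 3.58.1 (R 4.3.3), and p-values were adjusted by Benjamini-Hochberg over these probes, with a threshold of 0.05. The brightest tested probe stood for a gene. The script was tested on simulated data. An "at least" fold sets the bright group's mean against, per array, the higher of the lowest signal among probes well above background and the dim probe's own. Values per array are given for members past the threshold, for the 4 tested members of each group with the smallest p, and for others where single arrays stand apart. Other germline genes are named where they passed, up to the 4 with the smallest p of each list. The members, lists and rules were chosen with earlier results of these data known. Genes were named through RefSeq accessions, and promoters came from RefSeq. The alternatives were normexp background (offset 50), quantile and median scaling, the series table, other filters, a replicate block, the slide column as a block in place of slide or scan day (all arrays share 1 slide), moderated variance with trend, the mean of a gene's probes, and leaving out each array. Precision is limited by the number of arrays.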

Additional observations from a re-analysis of the deposited data

Results flagged for a closer look

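In 3 tested members, 1 of the 5 P150KD arrays stood far from the others by Dixon's test, which picks out about 1 in 20 groups by chance. Syce1 read -0.0484 on P150KD replicate 4 and 2.13 to 2.72 on the other 4, a gap of 0.785 of the range against a critical value of 0.71. Tex14 read -5.60 on the same array, where it was not well above background, and -0.151 to 0.66 on the others, a gap of 0.870. Ddx25 read -6.88 on P150KD replicate 1, also not above background, and -4.92 to -4.67 on the others, a gap of 0.886. None of these 3 members passed the test over all arrays.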

How the results depend on the processing

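The 8 called members kept their direction under every alternative run. Adjusted p ran from 0.00185 to 0.112 for Sycp1 and from 0.00173 to 0.146 for Tex101, and was highest in the block fits. Leaving out 1 array gave 4 to 7 risen and 1 to 2 fallen members, with 4 risen without siControl replicate 1. It gave 2 to 4 risen and 1 to 2 fallen meiotic, 0 to 1 risen piRNA and 2 to 3 risen spermatid genes, and 2 to 5 risen and 1 to 4 fallen other germline genes, whose alternatives were chosen after seeing the data. Normexp gave 5 risen meiotic genes. Quantile normalization, moderation with trend, and the filter to probes above background on all 8 arrays each gave 1 risen piRNA gene, and that filter gave 2 fallen members, both meiotic. Median scaling lost the calls of Tex12, Slc25a31 and Brdt (5 risen members) and gave 2 risen other genes. No filter lost Slc25a31 and Brdt (5 risen members), with 2 risen spermatid and 2 risen other genes, and quantile normalization lost Slc25a31. With the replicate block, limma called 0 of the 30348 probes, so 0 members, meiotic, spermatid or other germline genes rose or fell (at an unadjusted p under 0.05, 10 members were higher and 1 lower). The numbers share no source in the labels, and same-numbered arrays had correlations of -0.0140, -0.0745 and -0.0168, so they were not taken as pairs. With the slide column as a block, limma gave 0 risen members, 0 risen or fallen meiotic genes, 0 risen and 1 fallen spermatid genes (Ddx25, from a spot not above background), and 1 risen and 0 fallen other genes (7 members higher and 4 lower at an unadjusted p under 0.05). Members that did not pass changed sign as follows. The replicate block gave 0.10 for Sycp3, 0.082 for Syce1 and -0.29 for Dpep3. The column block gave 0.023 for Tex19.1, -0.37 for Dpep3, -0.70 for Prm1, -0.22 for Prm2, -0.061 for Tnp1 and -2.89 for Ldhc. Smc1b gave -0.023 with normexp, -0.051 with median scaling and -0.33 to 0.45 with 1 array left out. Dpep3 gave -0.0021 with quantile normalization, -0.033 with median scaling and -0.12 to 0.15 with 1 array left out. In the same way Ldhc ran from -0.59 to 2.56 and Izumo1 from -0.23 to 1.72, both lowest without siControl replicate 3, and Prm2 from -0.14 (without P150KD replicate 3) to 0.65. The cause of these changes was not tested.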
